A study of Mus musculus with 18 samples.

Results

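The 9 genes Hmgcs1, Mvk, Pmvk, Mvd, Idi1, Fdps, Fdft1, Sqle and Lss encode enzymes that carry carbon from acetyl units through mevalonate to lanosterol, the first sterol of cholesterol synthesis. Every probe set that the array's annotation paired with exactly 1 of these symbols was taken, which gave 22 of the 45037 probe sets of the array, for 9 of 18193 genes, and 0 of them also carried another symbol. Liver RNA had been measured on Affymetrix Mouse430_2 arrays in male C57BL/6J mice, which arrived at 5 weeks of age, had 1 week on a standard diet and were then fed 1 of 3 diets for 20 weeks. Control mice ate AIN93G, a rodent feed of purified ingredients. Western mice ate a Western-style diet that took 39.9% of its energy from fat (20% butter and 1% soy oil in the diet) and 34.0% from sucrose, and it held 0.15% cholesterol. The third group ate the Western-style diet with 0.05% quercetin, a plant flavonol. Each group had 6 mice with 1 array each. The mice were kept 3 to a cage under a 12 hour light and dark cycle, and neither the cage of a mouse nor the hour of killing is given in the sources used here.

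In the liver these enzymes supply cholesterol for membranes, lipoproteins and bile acids, and the same intermediates feed ubiquinone, dolichol and the prenyl groups of proteins. Transcription of the pathway is known to be driven by SREBP-2, a membrane-bound factor that is released and enters the nucleus when sterols in the endoplasmic reticulum are low. It is held back when cholesterol is plentiful, as after cholesterol is eaten. HMG-CoA synthase (Hmgcs1) acts before mevalonate, mevalonate kinase (Mvk), phosphomevalonate kinase (Pmvk) and mevalonate diphosphate decarboxylase (Mvd) turn mevalonate into isopentenyl diphosphate, and isopentenyl diphosphate isomerase (Idi1) makes its reactive isomer. Farnesyl diphosphate synthase (Fdps) joins these units, squalene synthase (Fdft1) joins a pair of farnesyl groups, squalene epoxidase (Sqle) adds oxygen, and lanosterol synthase (Lss) closes the rings.

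Promoter sequences are shown for 3 of the enzymes because SREBP-2 and its partner NF-Y bind short, known DNA motifs, and the reader can see which of these letters each promoter holds. RefSeq promoters, from 250 bases before to 50 bases after the start on build GRCm38.p6, were matched for 6 of the 9 genes (7 promoters, since Pmvk has 2). None was matched for Fdps, Fdft1 and Sqle. The capitals mark TCACNCCAC, a core of the sterol response element, and CCAAT, the box bound by NF-Y, on either strand, so that ATTGG is CCAAT read from the other strand. Hmgcs1 is printed because its promoter holds this core. Idi1 and Lss are printed because they had the smallest p (limma) for Western against control among the other matched genes. All 3 are on the plus strand and read 5′ to 3′.
Hmgcs1, chr13:119690101-119690400: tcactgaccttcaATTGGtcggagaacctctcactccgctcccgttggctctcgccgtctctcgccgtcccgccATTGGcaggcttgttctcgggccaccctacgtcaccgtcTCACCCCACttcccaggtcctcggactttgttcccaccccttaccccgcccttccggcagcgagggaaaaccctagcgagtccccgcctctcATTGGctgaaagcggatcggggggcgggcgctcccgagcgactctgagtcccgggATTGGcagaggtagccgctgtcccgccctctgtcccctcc
Idi1, chr13:8885356-8885655: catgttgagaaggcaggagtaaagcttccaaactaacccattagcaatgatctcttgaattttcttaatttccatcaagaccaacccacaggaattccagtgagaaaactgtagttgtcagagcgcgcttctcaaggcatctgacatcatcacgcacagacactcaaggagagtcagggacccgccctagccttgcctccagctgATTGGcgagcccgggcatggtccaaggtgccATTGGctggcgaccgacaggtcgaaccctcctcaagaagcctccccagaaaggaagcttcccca
Lss, chr10:76531355-76531654: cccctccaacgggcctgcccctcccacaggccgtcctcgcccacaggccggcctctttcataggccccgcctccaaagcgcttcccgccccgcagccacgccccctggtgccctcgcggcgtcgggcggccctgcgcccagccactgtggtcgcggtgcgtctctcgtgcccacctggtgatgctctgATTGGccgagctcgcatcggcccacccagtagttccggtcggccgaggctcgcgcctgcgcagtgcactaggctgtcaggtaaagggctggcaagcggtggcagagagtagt
The Hmgcs1 promoter held TCACCCCAC at position -137 from the start, and it was the only 1 of the 7 promoters with TCACNCCAC, which stood in 1.24% of all 32851 promoters of the same length. CCAAT stood in 6 of the 7 against 37.4% of all promoters, with 4 copies in Hmgcs1, 2 in Idi1 and 1 in Lss. GGGCGG, the box bound by Sp1, stood in 5 of the 7 against 35.7%, and CACGTG, an E-box, in 0 of the 7 against 7.15%. A match describes letters and not a bound site, and no match says only that the letters are not in this window.

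The labelled tissue was checked against its markers, and all 10 hepatocyte markers looked at, Alb, Ttr and Hnf4a among them, had deposited intensities of at least 1349 on every array. Control arrays 4 and 5 were nearly identical, with an SD of 0.0461 for their log2 differences over 2645 bright probe sets against 0.152 for the next closest pair, and they were averaged and counted as 1 sample. That left 17 samples, 5 on the control diet and 6 on each Western-style diet. The trimmed mean intensity of the arrays was 66.7 to 80.8 in the control group, 80.2 to 101.8 in the Western group and 82.3 to 95.4 in the quercetin group, so arrays were quantile normalized. Levels below are log2(intensity + 16), folds are ratios on that scale, and levels of different probe sets are not compared. A probe set was called changed at an adjusted p under 0.05 (limma, Benjamini-Hochberg over the 33778 probe sets bright enough to test). Of the 22 probe sets, 19 were tested, and 3 (1 of Fdps and 2 of Fdft1) were too dim.

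Whether a diet with cholesterol and fat lowers the transcripts of the liver's own cholesterol synthesis was read from the Western and control groups. All 9 enzymes had a lower mean level on the Western-style diet. Sqle fell 3.58-fold and Idi1 2.86-fold, and Fdft1, Lss and Mvk fell 1.62-fold, 1.57-fold and 1.35-fold. In all, 9 of the 19 tested probe sets fell and 0 rose, where 1.45% of all tested probe sets fell, 2.9% rose and 4.35% changed in either direction. Judged by its brightest probe set, 5 of the 9 genes fell, and 6 did so by any probe set. The median difference over all 22 probe sets was -0.60, and over the 9 brightest it was -0.66 (range -1.84 to -0.43), where the median of all tested probe sets was -0.011. The difference was negative for 19 of 19 tested probe sets, against 52.4% of all, and 17 of them had an unadjusted p under 0.05, against 18.3%. In 4 of the 19, every Western mouse lay below every control mouse, against 1.89% of all probe sets. In whole liver, fewer cells of a type and less RNA per cell cannot be told apart. Of 12 macrophage markers 5 rose on the Western-style diet. The list's summed deposited intensity, not normalized between arrays, was 2991 to 4188 in control mice and 5181 to 11066 in Western mice. Of 9 stellate cell markers 5 rose, with sums of 1310 to 1718 and 2351 to 4399. The part of these cells in the result was not tested. Of the 10 hepatocyte markers 0 rose and 1 fell. Their summed deposited intensity was 58067 to 67063 in control mice and 60707 to 66300 in Western mice. All these sums were taken without correcting for the arrays' difference in brightness. The log2 ratio of the actin control probe sets at the 3′ end over the 5′ end, a sign of RNA integrity, was 0.68 ± 0.06 (SD, n = 5) in control mice against 0.54 ± 0.11 (SD, n = 6) in Western mice and 0.55 ± 0.08 (SD, n = 6) with quercetin. The same ratio of the Gapdh control probe sets lay closer together, at -0.37 ± 0.04 (SD) in control mice, -0.38 ± 0.02 in Western mice and -0.40 ± 0.04 with quercetin. With the actin ratio as a covariate, Sqle and Idi1 were still called lower (adjusted p = 0.0145 and 0.0216, limma), and 3 of the 19 probe sets fell against 77 of all 33778.

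**Figure D1:**
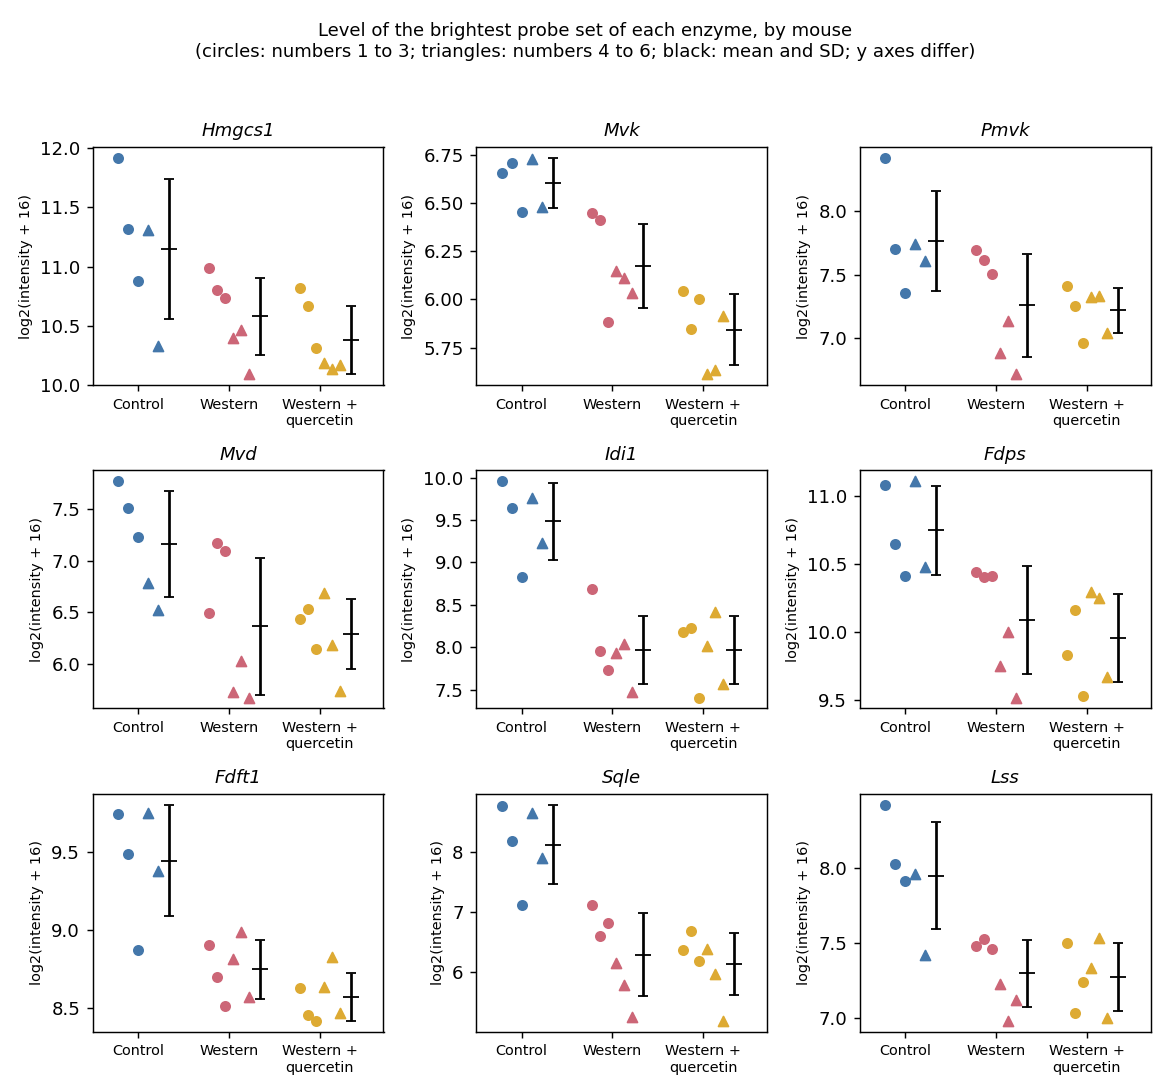
Level of the brightest probe set of each of the 9 enzymes in each mouse, as log2(intensity + 16) on the y axis, with 1 column of points per diet, circles for mice numbered 1 to 3, triangles for 4 to 6, and the mean and SD in black. The highest mouse of every panel is a control mouse, and for Idi1 the lowest control mouse (8.83) lies above the highest Western mouse (8.68).

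Hmgcs1 opens the pathway by joining acetyl-CoA to acetoacetyl-CoA. Its brightest probe set read 11.92, 11.32, 10.88, 11.31 and 10.32 in control mice 1, 2, 3, 4-5 and 6. Western mice ran from 10.09 through a median of 10.60 to 10.98, and mice with quercetin from 10.13 through 10.25 to 10.81. The groups overlapped, since control mouse 6 lay below 5 of the 6 Western mice, while control mouse 1 stood highest. The difference of Western from control was -0.57 ± 0.22 (SE), which did not pass (adjusted p = 0.162, limma), and of the 17 samples left out in turn it passed only without control mouse 6 (adjusted p = 0.0409, limma). The other 4 probe sets of Hmgcs1 had differences of -0.62 to -0.20, with 0 called.

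Mvk, which adds the first phosphate to mevalonate, read 6.66, 6.71, 6.46, 6.73 and 6.48 in the control mice. In Western mice it ran from 5.89 through 6.13 to 6.45, and in mice with quercetin from 5.61 through 5.88 to 6.05. Every control mouse lay above every Western mouse, though by a narrow gap, and the quercetin mice lay clear of the control mice. Mvk fell by 0.43 on the log2 scale (SE 0.11, adjusted p = 0.0340, limma). The call was lost when any 1 of control mice 1, 2 and 4-5 or of Western mice 3, 4, 5 and 6 was left out, with adjusted p then 0.0645 to 0.0803 (limma). It was also lost without normalization between arrays (-0.16, adjusted p = 0.450), with only the array medians set equal (-0.31, adjusted p = 0.146), with a pseudocount of 1 (adjusted p = 0.0576) and with the actin ratio as a covariate (adjusted p = 0.202), all by limma. Its second probe set differed by -0.58 and was not called (adjusted p = 0.111, limma).

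Pmvk, which adds the second phosphate, read 8.41, 7.70, 7.36, 7.74 and 7.61 in the control mice. Western mice ran from 6.72 through 7.32 to 7.70, and mice with quercetin from 6.96 through 7.29 to 7.41. Western mice 1 to 3 lay among the control mice, and Western mice 4 to 6 lay below them all. The difference was -0.51 ± 0.19 (SE) and did not pass (adjusted p = 0.136, limma). Mvd, which removes the carboxyl group to give isopentenyl diphosphate, read 7.77, 7.52, 7.23, 6.78 and 6.52 in the control mice. The Western group spanned 5.67 to 7.17 around a median of 6.26, and the quercetin group 5.74 to 6.69 around 6.31. Here too Western mice 2 and 3 lay among the control mice, and the groups overlapped. The difference of this probe set was -0.80 ± 0.28 (SE; adjusted p = 0.114, limma), while the second, dimmer probe set of Mvd fell by 1.05 (adjusted p = 0.0472, limma). Of the 17 samples left out in turn, the brighter one was called only without Western mouse 2 (adjusted p = 0.0430, limma).

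Idi1, the isomerase whose product starts chain building, read 9.96, 9.64, 8.83, 9.76 and 9.23 in the control mice. In the Western group the values were 7.47 to 8.68 with a median of 7.94, and with quercetin 7.41 to 8.41 with a median of 8.09. Neither Western-fed group overlapped the control mice, and Western mouse 1 came nearest to them. Idi1 fell by 1.52 on the log2 scale (SE 0.22, adjusted p = 0.000838, limma), and its second probe set fell by 1.56 (adjusted p = 0.000961, limma). The call held without each of the 17 samples in turn.

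Fdps, whose product farnesyl diphosphate is the last intermediate shared with the branches outside sterols, read 11.08, 10.65, 10.41, 11.11 and 10.48 in the control mice. The Western group spanned 9.52 to 10.44 around a median of 10.20, and the quercetin group 9.53 to 10.29 around 10.00. Western mouse 1 lay just above the lowest control mouse and Western mice 2 and 3 almost level with it, and Western mice 4 to 6 lay well below. The difference was -0.66 ± 0.19 (SE) and stayed just short of the threshold (adjusted p = 0.0579, limma). Of the 17 samples left out in turn, it passed only without Western mouse 2 (adjusted p = 0.0413, limma). It passed under 5 of 16 alternatives. Among them were a pseudocount of 64 (adjusted p = 0.0469, limma) and control arrays 4 and 5 kept separate (adjusted p = 0.0243, limma). The latter counts 2 nearly identical arrays as separate samples. It did not pass without normalization between arrays (-0.46, adjusted p = 0.109), with only array medians set equal (adjusted p = 0.0625) or with a pseudocount of 1 (adjusted p = 0.0971), all by limma. Fdft1, the squalene synthase that commits farnesyl groups to sterols, read 9.75, 9.49, 8.87, 9.75 and 9.38 in the control mice. Western mice ran from 8.51 through 8.76 to 8.99, and mice with quercetin from 8.42 through 8.55 to 8.83. Only control mouse 3 lay among the Western mice, 2 of which were above it. Fdft1 fell by 0.70 (SE 0.14, adjusted p = 0.00660, limma), its second tested probe set fell by 0.65 (adjusted p = 0.0146, limma), and the call held without each of the 17 samples in turn. It was lost without normalization between arrays (-0.43, adjusted p = 0.0751, limma) and with the actin covariate (adjusted p = 0.128, limma).

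Sqle, a rate-controlling oxygenase of the sterol arm, read 8.78, 8.19, 7.12, 8.66 and 7.91 in the control mice. In the Western group the values were 5.26 to 7.12 with a median of 6.38, and with quercetin 5.19 to 6.69 with a median of 6.28. Of the 6 Western mice, 5 lay below the lowest control mouse, number 3, which was level with Western mouse 1. Sqle fell by 1.84 (SE 0.33, 95% interval -2.53 to -1.15, adjusted p = 0.00353, limma), the largest difference of the 9 genes, and the call held without each of the 17 samples in turn. Lss, which folds squalene epoxide into lanosterol, read 8.42, 8.03, 7.91, 7.96 and 7.42 in the control mice. Western mice ran from 6.98 through 7.34 to 7.53, and mice with quercetin from 6.998 through 7.29 to 7.53. Control mouse 6 lay among the Western mice and the other control mice lay above them. Lss fell by 0.65 (SE 0.15, adjusted p = 0.0191, limma), but not without control mouse 1 or Western mouse 5 (adjusted p = 0.0537 and 0.0504, limma). Without normalization between arrays it differed by -0.37 and was not called (adjusted p = 0.123, limma), nor was it with the actin covariate (adjusted p = 0.0849, limma). A dimmer probe set of Lss fell by 0.69 with no overlap between the groups (adjusted p = 0.0120, limma), and the third differed by -0.33 and was not called.

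**Figure D2:**
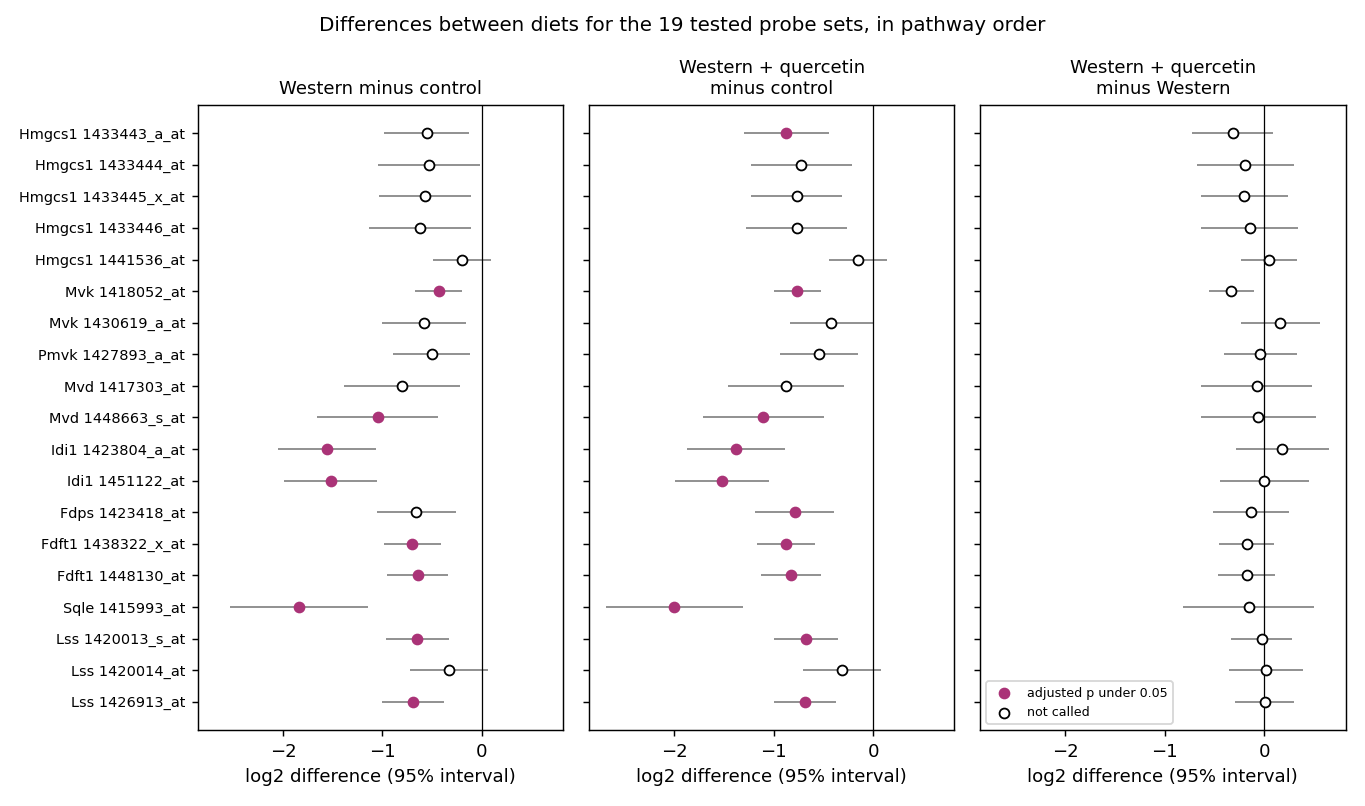
Log2 differences between diets for the 19 tested probe sets in pathway order, with 95% intervals from limma on the x axis and filled points for an adjusted p under 0.05. The filled points lie left of 0 in both comparisons with the control diet, 9 for the Western-style diet and 11 with quercetin, and the comparison of quercetin with the Western-style diet alone has 0.

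The Western-style diet with quercetin was also set against the control diet, which shares the control mice with the comparison above. Here 11 of the 19 tested probe sets fell and 0 rose, where 0.986% of all tested probe sets fell, 1.86% rose and 2.85% changed in either direction. By the brightest probe set 6 of the 9 genes fell, and 8 did by any probe set, all but Pmvk. Sqle fell 3.99-fold (adjusted p = 0.00290, limma), with every quercetin mouse below every control mouse, and Idi1 fell 2.87-fold (adjusted p = 0.00122, limma). Fdft1 fell by 0.87 (adjusted p = 0.00220), Fdps by 0.79 (adjusted p = 0.0308), Mvk by 0.76 (adjusted p = 0.00126) and Lss by 0.68 (adjusted p = 0.0207), all by limma. Hmgcs1 differed by -0.77 in its brightest probe set, which did not pass (adjusted p = 0.0688, limma), and fell by 0.87 in another (adjusted p = 0.0252, limma). Mvd likewise fell only in its dimmer probe set, by 1.10 (adjusted p = 0.0469, limma), and Pmvk differed by -0.54 (adjusted p = 0.133, limma). The median over the 22 probe sets was -0.77 and over the 9 brightest -0.79, beside -0.010 for all tested probe sets. In 7 of the 19 every quercetin mouse lay below every control mouse, against 1.42% of all probe sets, and the difference was negative in 19 of 19 against 52.4%. The call of Fdps was lost without control mouse 1, 2 or 4-5 or quercetin mouse 1 or 3 (adjusted p = 0.0571 to 0.0774, limma), and that of Lss without control mouse 1 or 2 or quercetin mouse 2 (adjusted p = 0.0521 to 0.0537, limma). Without control mouse 6 the brightest probe set of Hmgcs1 was called (adjusted p = 0.0169, limma), and the count of 11 became 7 without control mouse 1 or control mouse 2. With the actin ratio as a covariate Sqle, Idi1 and Mvk were still called (adjusted p = 0.00808, 0.0232 and 0.0235, limma), as 3 of 58 probe sets that fell, while Fdft1, Lss and Fdps were not (adjusted p = 0.0524, 0.0855 and 0.0873, limma). Lss was also not called without normalization between arrays (adjusted p = 0.0980, limma), nor Fdps with a pseudocount of 1 (adjusted p = 0.0601, limma).

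Quercetin within the Western-style diet was the comparison that asked whether the flavonol altered these transcripts. No probe set of the 9 enzymes was called: 0 of 19, where 0 of all 33778 tested probe sets (0%) changed in limma at the adjusted threshold and 1105 (3.27%) had an unadjusted p under 0.05. The 9 brightest probe sets differed by -0.33 to -0.00091, with a median of -0.13 and all 9 below 0, and over the 22 probe sets the median was -0.049. Of the 19 tested, 14 were below 0 against 50.6% of all. The signs rested on single mice: without Western mouse 1 or quercetin mouse 6, 5 of the 9 brightest were below 0 and the median over the 22 was 0.0087 and 0.029, and without Western mouse 2 or 3 it was 6 of the 9. Of the 19, 0 had every quercetin mouse below every Western mouse against 0.077% of all. Sqle differed by -0.16 with a 95% interval of -0.82 to 0.50, and Idi1 by -0.00091 with an interval of -0.45 to 0.45. Mvk had the smallest p of the 9, with a difference of -0.33, an interval of -0.56 to -0.10 and an unadjusted p of 0.00642 that did not survive adjustment (adjusted p = 1.0, limma). Its second probe set differed the other way, by 0.16 (unadjusted p = 0.409, limma). The 95% intervals of the 9 genes reached a median of 0.38 to either side. A p that misses the threshold does not show that the diets act alike.

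The mean of the 9 brightest probe sets was taken in each mouse as the enzymes' common level. It was 9.19, 8.80, 8.34, 8.87 and 8.37 in control mice 1, 2, 3, 4-5 and 6, a mean of 8.72 ± 0.36 (SD, n = 5). In Western mice 1 to 6 it was 8.25, 8.13, 8.02, 7.67, 7.73 and 7.38, and the mean of these was 7.86 ± 0.33 (SD, n = 6). The quercetin mice, in the same order, had 7.91, 7.87, 7.58, 7.83, 7.81 and 7.42, and their mean was 7.74 ± 0.20 (SD, n = 6). All control mice lay above all mice on the Western-style diets, with control mouse 3 and Western mouse 1 nearest each other.

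The mice numbered 1 to 3 and those numbered 4 to 6 gave different pictures within the Western-style diet. The mean common level was 8.13 in Western mice 1 to 3 and 7.59 in Western mice 4 to 6, beside 7.79 and 7.69 with quercetin and 8.78 and 8.62 on the control diet. Among mice 1 to 3 all 9 enzymes were lower with quercetin than on the Western-style diet alone, with a median difference of -0.28 and -0.58 for Fdps and -0.55 for Mvd. Among mice 4 to 6 the sign was negative for 3 enzymes and positive for 6, with a median of 0.18, 0.31 for Fdps and 0.39 for Mvd. None of these within-set differences was called, and the difference between the sets was not tested. Against the control diet the Western difference was negative for all 9 enzymes in both sets, with a median of -0.59 in mice 1 to 3 and -0.77 in mice 4 to 6. Sqle differed by -1.18 (adjusted p = 0.199, limma) in the first set and fell by 2.55 (adjusted p = 0.0301, limma) in the other, and Idi1 differed by -1.35 (adjusted p = 0.136, limma) and fell by 1.69 (adjusted p = 0.0356, limma). The first set had 3 Western and 3 control mice, and the other had 3 Western mice and only 2 control samples. Whether the numbers stand for a cage, a day or nothing is not given in the sources used here.

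**Figure D3:**
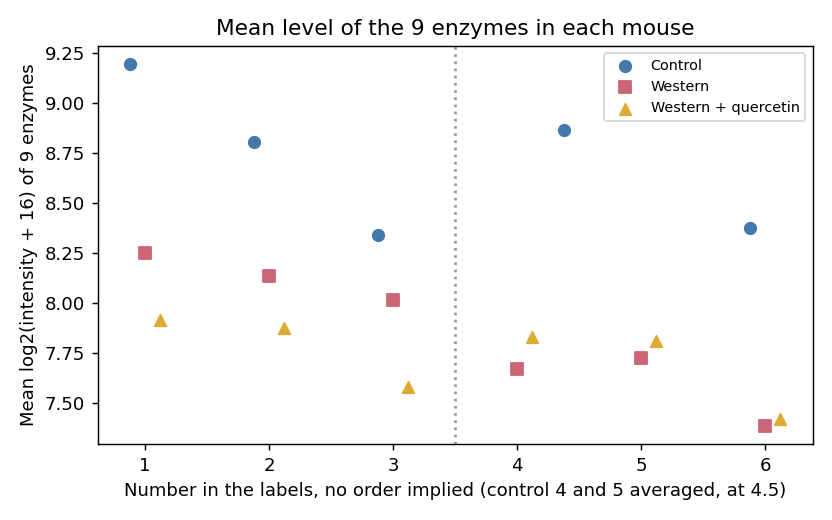
Mean log2(intensity + 16) of the brightest probe sets of the 9 enzymes on the y axis for each mouse, placed by its number in the labels on the x axis, with the dotted line between numbers 3 and 4. Every control point lies above the Western and quercetin points, and the gap between Western and quercetin mice has the Western mice higher for numbers 1 to 3 (means 8.13 and 7.79) and the quercetin mice higher for 4 to 6 (7.59 and 7.69).

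The enzymes also varied together among mice of the same diet. With each gene centred on its group mean, the correlation with the mean of the other 8 enzymes over the 17 samples was 0.91 for Pmvk, 0.83 for Sqle, 0.82 for Fdps and 0.82 for Hmgcs1, and it was 0.75 for Idi1, 0.71 for Lss and 0.64 for Mvd. Fdft1 (0.49) and Mvk (0.34) followed the others least. Over the 36 pairs of enzymes r ran from -0.029 to 0.84 with a median of 0.58. These are descriptions of probe sets read on the same arrays. Of 14961 other genes, the 10 whose centred level was most like the common level were Rdh11 (r = 0.92), Nsdhl (0.90), Rbm38 (0.89), Cyp51 (0.88), Ighm (0.87), Dlat (0.86), Elovl5 (0.86), Me1 (0.84), Haus7 (0.84) and Dhcr7 (0.84). Nsdhl, Cyp51 and Dhcr7 encode later enzymes of cholesterol synthesis, and Rdh11 encodes a retinol dehydrogenase. Of the 10, Rdh11 (-1.03, adjusted p = 0.0153, limma), Nsdhl (-0.96, adjusted p = 0.00185, limma) and Cyp51 fell on the Western-style diet and the other 7 were not called.

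The steps from lanosterol to cholesterol were followed with a list of 10 genes, 9 of which were matched to the array, each by its brightest probe set. On the Western-style diet 6 of the 9 fell, 0 rose and 3 did not pass, with a median of -0.55 and all 9 below 0. With no normalization between arrays, or with only the array medians set equal, 8 of the 9 were below 0 and 4 fell. Tm7sf2, a sterol reductase, went from 9.57 ± 0.24 (SD, n = 5) in control to 8.43 ± 0.21 (SD, n = 6) in Western mice, a fall of 2.20-fold (adjusted p = 4.30e-05, limma). Msmo1, a methylsterol oxidase, fell 2.34-fold from 9.95 ± 0.44 to 8.72 ± 0.19 (adjusted p = 0.00112, limma). Cyp51, the lanosterol demethylase that acts right after Lss, fell 2.10-fold from 8.52 ± 0.36 to 7.45 ± 0.33 (adjusted p = 0.00161, limma). All 3 calls held without each of the 17 samples in turn. In mice 1 to 3 alone all 3 were lost, and in mice 4 to 6 alone that of Cyp51 was lost. With quercetin against the control diet 6 of the 9 fell again, and Cyp51 fell 2.60-fold (adjusted p = 0.000258, limma).

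Of 8 genes of sterol sensing and uptake, 6 were matched, and on the Western-style diet 2 fell, 1 rose and 3 did not pass, with a median of -0.24. Stard4, a cholesterol carrier of the cytosol, fell by 0.68 (adjusted p = 0.00295, limma), and Scap, the escort that brings SREBP out of the endoplasmic reticulum, fell by 0.55 (adjusted p = 0.00302, limma). Both calls held without each of the 17 samples in turn. That of Scap was lost without normalization between arrays, with the actin covariate, and in mice 1 to 3 or 4 to 6 alone. That of Stard4 was lost only in mice 1 to 3 alone. Srebf1, which encodes SREBP-1 of the fatty acid pathway, rose by 0.67 (adjusted p = 0.0289, limma), a call lost without control mouse 1, 2 or 6 or Western mouse 3, 4 or 6 (adjusted p up to 0.0768, limma). The call was also lost with a pseudocount of 1, with the actin covariate, and in mice 1 to 3 or 4 to 6 alone. Srebf2, which encodes SREBP-2, differed by -0.25 and was not called (adjusted p = 0.276, limma). Of 8 genes that branch from farnesyl diphosphate, 7 were matched and 0 were called on the Western-style diet, with a median of -0.09. The smallest p were those of Coq2, a ubiquinone enzyme (0.23, adjusted p = 0.0853, limma), and Pdss2, a subunit of the synthase of the ubiquinone side chain (-0.25, adjusted p = 0.157, limma), and these differed in opposite directions. With quercetin against the control diet Coq2 rose by 0.29 (adjusted p = 0.0381, limma), a call that was kept without 7 of the 17 samples left out in turn and lost without the other 10 (adjusted p up to 0.110, limma). Between quercetin and the Western-style diet alone 0 genes of the 3 lists were called.

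**Figure D4:**
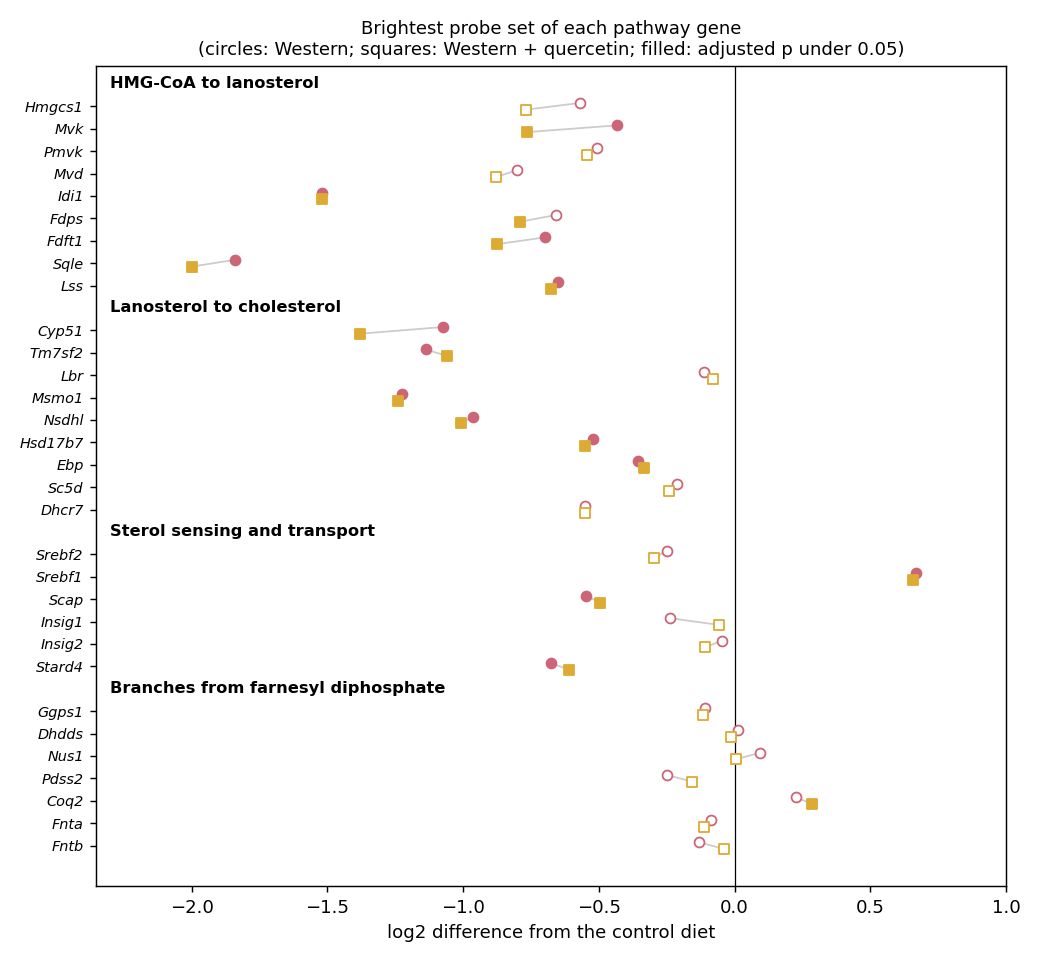
Log2 difference from the control diet on the x axis for the brightest probe set of each pathway gene, with circles for the Western-style diet, squares for the same diet with quercetin, and filled symbols for an adjusted p under 0.05. Filled symbols lie left of 0 in both blocks of sterol enzymes, with Sqle farthest left, while in the branches from farnesyl diphosphate only the square of Coq2 (0.29) is filled.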

How the data were processed

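The deposited values are intensity values, 1 per probe set and array, on a linear scale. How they were made from the scans, and whether they were scaled, is not given in the sources used here. Per the labels' protocols, cRNA came from the total RNA of each mouse by 1 cycle of amplification. Here 64 control probe sets were left out, log2(intensity + 16) was quantile normalized, and control arrays 4 and 5 were averaged. Probe sets with a mean under the 25th percentile (4.40) were not tested. Of the 45037, 34945 had 1 symbol, 932 several and 9160 none in the platform annotation. A linear model with 1 mean per diet was fitted to 17 samples (limma 3.58.1, R 4.3.3, lmFit and eBayes, two-sided). It had been tested on simulated data. Mice were the replicates, their number limits the precision, and p-values measure only the spread between them. The brightest probe set gave a gene's level. Named genes were the 9 enzymes, up to 3 per list with the smallest p and the 10 most correlated. Srebf2 was added after its value was seen. The members, lists and rules were chosen with earlier results of these data known. Some listed genes were not analysed here. Alternatives changed normalization, pseudocount, filter, probe set choice, samples, block and covariate. Figures used matplotlib 3.10.9 in Python 3.11.15.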

Additional observations from a re-analysis of the deposited data

How the results depend on the processing

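All 9 brightest probe sets kept a negative difference from the control diet, in both comparisons, under all 16 alternatives and under leaving out each of 17 samples, and 0 members were called between quercetin and the Western-style diet alone. The number of calls moved more. Western against control gave 9 members of 1468 calls (489 lower, 979 higher) and quercetin against control 11 of 962. With the values as deposited, which shift the median of all probe sets by 0.18 and 0.19, these were 3 of 5736 (145 lower, 5591 higher) and 8 of 5362, while the members' median relative to all was still -0.56 and -0.72. With array medians centred, 6 members fell for the Western-style diet (288 lower and 1503 higher in all) and 11 with quercetin (161 and 774). The actin covariate gave 3 of 207 and 3 of 149. Mice 1 to 3 alone gave 0 of 64 and 3 of 261, and mice 4 to 6 alone 3 of 218 and 0 of 24, with fewer samples. With 1 value per gene, the brightest probe set gave 6 members lower in both comparisons, of 431 and 270 lower among 13645 genes tested. Averaging each gene's probe sets gave 5 for the Western-style diet and 7 with quercetin, of 439 and 294 lower. Fitting only the groups compared gave 556 calls for quercetin against control.

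The labels do not say that a replicate number marks a shared cage or day, and not every same-numbered pair correlated above 0.1 (11 of 18 did, the lowest r being -0.22 for number 2), so the numbers were not taken to pair mice. Of 18 arrays, 10 were most like their own number over the other diets. Likeness also followed the sets 1 to 3 and 4 to 6. Between mice of different diets the median r was 0.083 within a set and -0.082 across the sets. The count therefore cannot tell pairing by number apart from likeness within these sets. With the sets as a block, 10 members fell for the Western-style diet, where 717 probe sets were lower and 1229 higher in all. With quercetin against control 14 members fell, where 469 were lower and 786 higher. With the number as a replicate block and control arrays 4 and 5 separate, 16 of 2313 and 16 of 1545 calls were members, and all 9 brightest probe sets were called in both. That adds Hmgcs1 (adjusted p = 0.0110), Fdps (0.0180), Mvd (0.0283) and Pmvk (0.0402, limma) to the calls for the Western-style diet. It adds Hmgcs1 (0.00264), Mvd (0.0225) and Pmvk (0.0371, limma) to those with quercetin. This fit counts the 2 nearly identical control arrays as separate samples. Keeping them separate without a block gave 10 members for the Western-style diet (702 lower and 1218 higher in all) and 12 with quercetin. Leaving out 1 sample at a time gave 6 to 11 members for the Western-style diet and 7 to 14 with quercetin, and 847 to 1800, 554 to 1267 and 0 to 1 calls in all for Western against control, quercetin against control and quercetin against Western. The count fell by over 1.5 times without control mouse 6 (902), Western mouse 1 (891), 4 (847) or 5 (927), and, with quercetin, without control mouse 2 (556), 3 (583) or 6 (554) or quercetin mouse 1 (625), 2 (562) or 5 (555). The 1 call came without control mouse 3. The causes were not tested.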

Other observations

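In 30 sets of mice checked, which were the 9 enzymes and their common level in each of the 3 groups, 0 held a mouse set apart from the rest by Dixon's test.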
